A study of Drosophila melanogaster with 12 samples.

Results

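Slmb RNAi and TopII RNAi, the knockdowns of 2 factors with a known role in homolog pairing, were compared with each other directly in haplotype-resolved Hi-C of PnM cells. The comparison takes the 2 Slmb RNAi libraries against the 2 TopII RNAi libraries, which are 4 of the 8 Hi-C libraries and 4 of the 12 samples of the series. No mock library entered it, so no shared control can link the knockdowns. Mock cells, to which the paper gave blank deionized water and no dsRNA, and untreated cells are quoted as reference levels. Untreated cells also serve to rank windows, and both groups enter the alternative fits with the spread from all 8 libraries. PnM is a single clonal *Drosophila* line, male, diploid and of mesodermal character, grown from hybrid embryos of DGRP-057 mothers and DGRP-439 fathers, inbred strains that differ at many single bases. All 4 libraries come from this clone. In the Slmb RNAi cells and in the TopII RNAi cells, 30 ug of dsRNA against the gene was delivered by calcium phosphate transfection on the first day and again on the third, and the cells were harvested on the fourth. Each knockdown has 2 replicates. The mRNA level of the targeted genes was not analysed here.

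Slmb is the substrate receptor of an SCF ubiquitin ligase. One of its substrates is Cap-H2, a subunit of condensin II, and condensin II compacts chromosome axes and separates paired homologs. Topoisomerase II passes 1 DNA duplex through another, which removes tangles within and between chromosomes. In most somatic cells of flies the maternal and paternal homologs lie side by side, and Hi-C, which joins and sequences DNA fragments that were close in the nucleus, reads this as contacts between homologs once each side of a pair is assigned to a parent. A *cis* pair joins loci of 1 homolog, a *thom* pair joins loci on the maternal and the paternal copy of the same arm, and a *thet* pair joins different chromosomes. These male cells carry a single X, from the mother, which has *cis* contacts only and thus shows folding with no homolog to pair with.

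The Slmb RNAi libraries held 11322972 and 10190412 unique pairs, and the TopII RNAi libraries held 11635751 and 11340208. Between 0.348% and 0.503% of pairs had a side off the 9 large arms of the diploid genome (2L, 2R, 3L and 3R of each parent, and X) and were left out. Any 2 of the 4 libraries shared between 466 and 564 identical pairs that lay at least 10 kb apart or on different arms, at most 0.00782% of all such pairs of the smaller library, so each was counted as a separate sample. The share of *cis* pairs under 1 kb was 40.8% and 42.3% in Slmb RNAi and 42.8% and 39.6% in TopII RNAi. *Thom* pairs under 1 kb faced inward beyond the mean of the other orientations, an indirect estimate of reads assigned to the wrong homolog. This inward excess made up 0.437% and 0.453% of *thom* pairs in Slmb RNAi and 0.558% and 0.492% in TopII RNAi. The maternal copy of 3R, which this line carries in excess, had 1.67 and 1.66 times the read sides of the paternal copy in Slmb RNAi and 1.65 and 1.54 times in TopII RNAi, while the other autosomal arms stood between 1.00 and 1.01. Each knockdown was sequenced in its own lane, and only the Slmb RNAi reads carry the run prefix that the mock reads also have, so sequencing run and knockdown cannot be told apart. Nothing in the labels beyond the words biological replicates says how separate the cultures were, and p-values reflect no more than the spread between these libraries. The limma fits share that spread across features. Their p-values can thus lie far under 0.333, the smallest that an exact permutation test of 2 libraries against 2 allows.

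Slmb RNAi libraries held a larger share of *cis* contacts at megabase separations, and a smaller share at mid range, around 100 kb, than TopII RNAi libraries. Pairs within an arm were counted in 32 ranges of separation between 1 kb and 10 Mb, 8 per order of magnitude, as a share of all such pairs of the library. Pairs 1 to 10 Mb apart made up 32.7% and 31.3% of the *cis* pairs in Slmb RNAi, against 24.6% and 26.1% in TopII RNAi. The mock libraries, which entered neither the exact tests nor the main fits, stood at 27.3% and 26.6%. Untreated cells stood at 26.7% and 27.3%. The Slmb RNAi libraries thus lay above all the others and the TopII RNAi libraries below all the others in this decade. Pairs 10 to 100 kb apart made up 29.3% and 30.1% in Slmb RNAi and 34.0% and 32.3% in TopII RNAi, and pairs 100 kb to 1 Mb apart 24.1% and 23.8% in Slmb RNAi and 26.3% and 27.6% in TopII RNAi. For each of these 3 decades the libraries of the knockdowns did not overlap (exact permutation test, two-sided p = 0.333, the smallest that 2 libraries against 2 allow). In the decade of 1 to 10 kb they did overlap, at 13.9% and 14.7% in Slmb RNAi and 15.1% and 14.0% in TopII RNAi. The shares sum to 100%, so a gain in one decade is a loss in others.

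**Figure D1:**
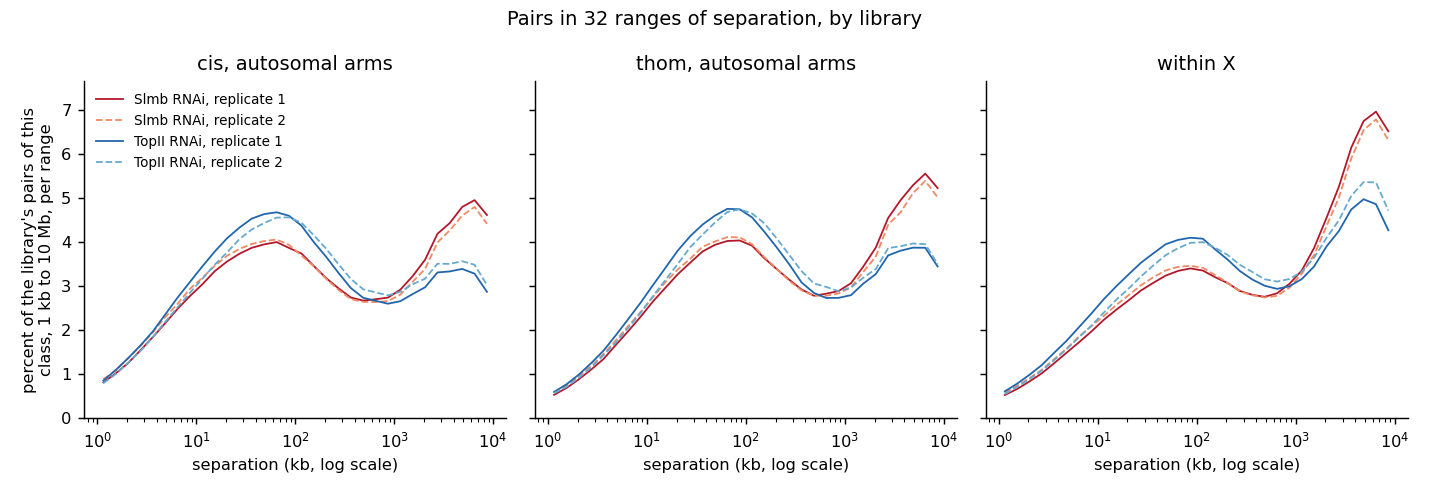
Percent of a library's pairs (vertical axis) in each of 32 ranges of separation (horizontal axis, log scale) for *cis* pairs, *thom* pairs and pairs within X, with a line for each of the 4 libraries. Both Slmb RNAi lines lie above both TopII RNAi lines beyond 1.78 Mb and below them around 100 kb, and the lines of the knockdowns cross near 1 Mb.

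Range by range, 16 of the 32 *cis* ranges passed limma at an adjusted p under 0.05 (50%), 6 of them higher in Slmb RNAi (18.8%) and 10 lower (31.2%). The 6 higher ranges ran without a break over 1.78 to 10 Mb, and the difference grew with separation, with 1.14-fold in the first and 1.53-fold in the last. In that last range, 7.5 to 10 Mb, the libraries stood at 4.61% and 4.41% of pairs in Slmb RNAi and at 2.87% and 3.02% in TopII RNAi. This was the largest increase, with a log2 difference of 0.62 ± 0.06 (SE; adjusted p = 1.04e-14). The 10 lower ranges ran over 23.7 to 422 kb. The largest decrease was at 100 to 133 kb, with 3.74% and 3.69% of pairs in Slmb RNAi, against 4.37% and 4.43% in TopII RNAi (log2 difference −0.25 ± 0.06, adjusted p = 0.00026). The ranges that start at 1 kb, at 10 kb and at 1 Mb did not pass. There the fold was 1.03 (95% interval 0.95 to 1.11), 0.942 (0.871 to 1.02) and 1.04 (0.958 to 1.12). Neighbouring ranges of a library move together, and limma gave them a common variance, so these calls describe 1 change of shape and not 16 separate findings. The p-values rest on a variance pooled over all 32 ranges, with 64 degrees of freedom, as if the ranges were independent. The calls also depend on the denominator. When each range was set against the pairs of 1 to 10 kb, a form added after the first values had been seen, the last *cis* range still differed by 1.56-fold, with 0.333 and 0.299 pairs per near pair in Slmb RNAi and 0.19 and 0.217 in TopII RNAi, but none of the 32 ranges passed (lowest adjusted p = 0.105).

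*Thom* contacts also had a larger share at megabase separations and a smaller one at mid range in Slmb RNAi. Pairs of loci on the maternal and paternal homolog that lie 1 to 10 Mb apart along the arm made up 35.9% and 34.5% of *thom* pairs in Slmb RNAi, against 27.8% and 28.7% in TopII RNAi, and those 10 to 100 kb apart made up 28.2% and 28.9% in Slmb RNAi, against 32.8% and 31.3% in TopII RNAi. Of the 32 *thom* ranges 17 passed (53.1%), 6 higher in Slmb RNAi (18.8%) and 11 lower (34.4%). The higher ranges again covered 1.78 to 10 Mb and the lower ones 17.8 to 422 kb. At 7.5 to 10 Mb the libraries held 5.22% and 5.01% of *thom* pairs in Slmb RNAi and 3.44% and 3.49% in TopII RNAi, which is 1.48-fold (log2 difference 0.56 ± 0.06 SE, adjusted p = 1.95e-13). The largest decrease was at 133 to 178 kb, at 3.63% and 3.65% in Slmb RNAi and 4.23% and 4.42% in TopII RNAi (log2 difference −0.25 ± 0.06, adjusted p = 0.000194). At 100 to 133 kb the fold was 0.854 (adjusted p = 0.000468). At 1, 10 and 1000 kb the *thom* folds were 0.956, 0.933 and 1.05, and none passed. Per pair of 1 to 10 kb, the last *thom* range differed by 1.55-fold and no range passed (lowest adjusted p = 0.0697).

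The X, with no homolog, showed the change as well. X pairs 1 to 10 Mb apart made up 43.3% and 41.8% of X pairs in Slmb RNAi, against 33.5% and 36.0% in TopII RNAi, with mock libraries at 37.9% and 37.1% and untreated cells at 39.2% and 39.6%. Of 32 ranges 20 passed (62.5%), 6 higher in Slmb RNAi (18.8%), over 1.78 to 10 Mb, and 14 lower (43.8%), over 10 to 562 kb. The last range held 6.51% and 6.31% in Slmb RNAi and 4.26% and 4.71% in TopII RNAi, 1.43-fold (log2 difference 0.52 ± 0.07 SE, adjusted p = 6.88e-09). Untreated cells stood above Slmb RNAi there, with a share per possible locus pair of 1.96e-15 and 1.98e-15, against 1.90e-15 and 1.84e-15. The largest decrease was again at 133 to 178 kb, with 3.2% and 3.25% in Slmb RNAi and 3.83% and 3.87% in TopII RNAi (log2 difference −0.26 ± 0.07, adjusted p = 0.00231). At 10 kb the fold was 0.895 (adjusted p = 0.0375) and at 100 kb 0.838 (adjusted p = 0.00231), while the ranges at 1 kb (0.954) and 1 Mb (1.02) did not pass. Leaving out Slmb RNAi replicate 1 left 3 passing X ranges and leaving out Slmb RNAi replicate 2 left 4, all of them higher in Slmb RNAi. With 1 Slmb RNAi library the spread comes from the TopII RNAi pair alone, and the lone library is assumed to vary like it. The log2 difference at 133 to 178 kb was −0.25 without replicate 1 and −0.27 without replicate 2 (adjusted p = 0.0988 and 0.0628), so the decrease kept its size but no longer passed. Per pair of 1 to 10 kb, the last X range differed by 1.55-fold and none passed (lowest adjusted p = 0.308).

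**Figure D2:**
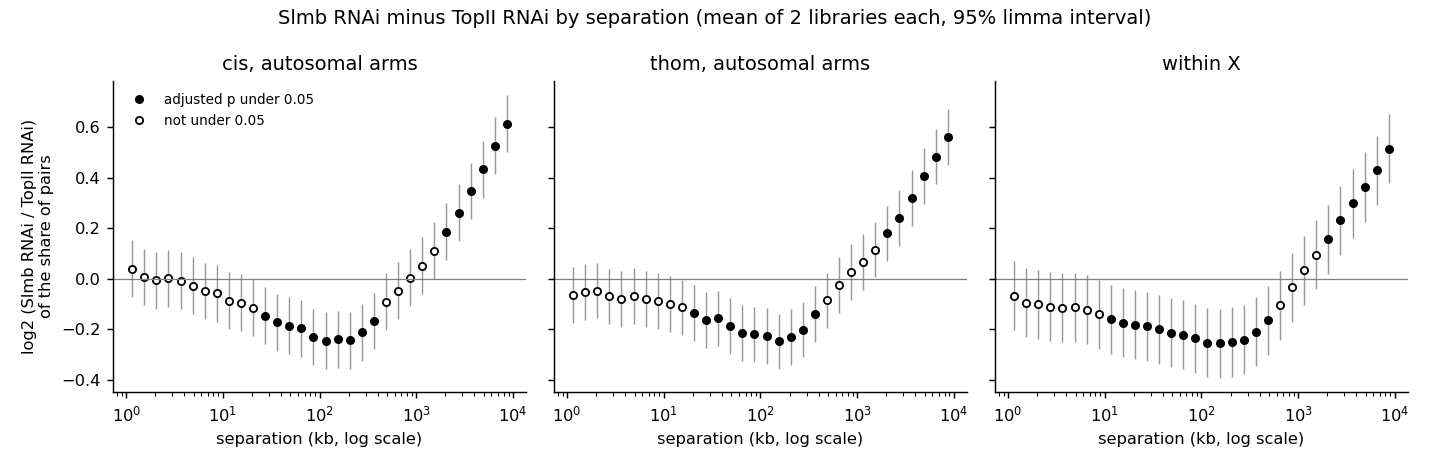
Log2 of the Slmb RNAi share over the TopII RNAi share (vertical axis) against separation (horizontal axis, log scale) for *cis*, *thom* and X pairs. Points are means of 2 libraries each, bars are 95% limma intervals and filled points have an adjusted p under 0.05, which include the 6 ranges beyond 1.78 Mb in each panel, the last of them at 0.62, 0.56 and 0.52.

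Every autosomal arm and both of its homologs took part. The share of *cis* pairs 2.37 to 10 Mb apart was higher in both Slmb RNAi libraries than in both TopII RNAi libraries on all 8 homologous arms, by 1.32-fold to 1.43-fold. The lowest fold was that of maternal 3R, where the share was 23.4% and 22.5% in Slmb RNAi and 17.0% and 17.8% in TopII RNAi. The highest was that of paternal 3R, at 23.0% and 22.2% in Slmb RNAi and 15.3% and 16.2% in TopII RNAi, so the homologs of 3R stood at opposite ends of the order. On 2L the share was 22.0% and 21.0% in Slmb RNAi and 15.5% and 16.5% in TopII RNAi for the maternal homolog, with a paternal fold of 1.33. The maternal and paternal folds were 1.38 and 1.36 for 2R and 1.35 and 1.36 for 3L. For *thom* pairs of that separation the fold was 1.30 on 2L, 1.33 on 2R, 1.32 on 3L and 1.36 on 3R, and for X it was 1.29. Conversely, the share of pairs 75.0 to 237 kb apart was lower in both Slmb RNAi libraries on all 8 homologous arms, by 0.822-fold to 0.862-fold, in *thom* on all 4 arms, by 0.837-fold to 0.863-fold, and on X, by 0.841-fold. These per-arm shares come from the same libraries and count as no further replicates.

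Contacts beyond the last range followed the same order. Pairs over 10 Mb apart made up 6.06% and 5.78% of *cis* pairs of at least 1 kb in Slmb RNAi, against 3.62% in each TopII RNAi library. For *thom* the values were 6.81% and 6.47% in Slmb RNAi and 4.41% and 4.19% in TopII RNAi, and for X 9.22% and 8.91% in Slmb RNAi and 5.93% and 6.5% in TopII RNAi. The libraries of the knockdowns did not overlap in any of the 3 (exact permutation p = 0.333 each, the smallest possible).

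The decay of contact frequency with separation was read as the slope of log10 contact frequency, which is the pairs of a range per possible locus pair, against log10 separation. Between 1 and 10 Mb the *cis* slope was −0.554 and −0.551 in Slmb RNAi and −0.743 and −0.755 in TopII RNAi, so contacts decayed more slowly with separation in Slmb RNAi. The *thom* slope there was −0.518 in both Slmb RNAi libraries, against −0.682 and −0.702 in TopII RNAi, and the X slope was −0.425 and −0.423 in Slmb RNAi and −0.602 and −0.576 in TopII RNAi. Untreated cells had a shallower *cis* slope than either, at −0.472 and −0.471, and mock cells were between the knockdowns, at −0.642 and −0.637. Between 100 kb and 1 Mb the *cis* slope was −1.15 and −1.16 in Slmb RNAi and −1.26 and −1.24 in TopII RNAi. Between 10 and 100 kb the order turned round, with −0.877 and −0.892 in Slmb RNAi and −0.854 and −0.815 in TopII RNAi. In each of these the groups did not overlap (exact permutation p = 0.333).

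The balance of *thom* to *cis* contacts, in contrast, did not separate the knockdowns. Over all autosomal pairs of 1 kb to 10 Mb the *thom*/*cis* ratio was 0.688 and 0.691 in Slmb RNAi, which is 0.69 ± 0.00216 (SD, n = 2), and 0.652 and 0.695 in TopII RNAi, 0.674 ± 0.0307 (SD, n = 2). The Slmb RNAi libraries lay between the TopII RNAi libraries, and the difference of 1.02-fold was smaller than the spread between the TopII RNAi replicates (exact permutation p = 1). All 4 values were below those of mock cells, at 0.732 and 0.735, and of untreated cells, at 0.768 and 0.77. By separation, none of the 32 ranges passed limma (0%), and none had an unadjusted p under 0.05 either. The ratio was 0.449 and 0.457 in Slmb RNAi and 0.454 and 0.496 in TopII RNAi at 1 kb, 0.6 and 0.598 in Slmb RNAi and 0.572 and 0.608 in TopII RNAi at 10 kb, and 0.721 and 0.739 in Slmb RNAi and 0.68 and 0.728 in TopII RNAi at 100 kb. At 1 Mb it was 0.723 and 0.732 in Slmb RNAi and 0.686 and 0.72 in TopII RNAi, a fold of 1.04 with a 95% interval of 0.973 to 1.1. This was 1 of only 3 ranges, over 0.75 to 1.78 Mb, whose libraries did not overlap between the knockdowns. The largest difference was a log2 difference of −0.07 at 1 kb. What could be said of the ratio hung on the TopII RNAi replicates: without TopII RNAi replicate 2, 25 ranges passed, all higher in Slmb RNAi, and without TopII RNAi replicate 1, 5 passed, all lower. In both of these fits the spread comes from the closely matching Slmb RNAi pair alone, and the lone TopII RNAi library is assumed to vary like it.

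**Figure D3:**
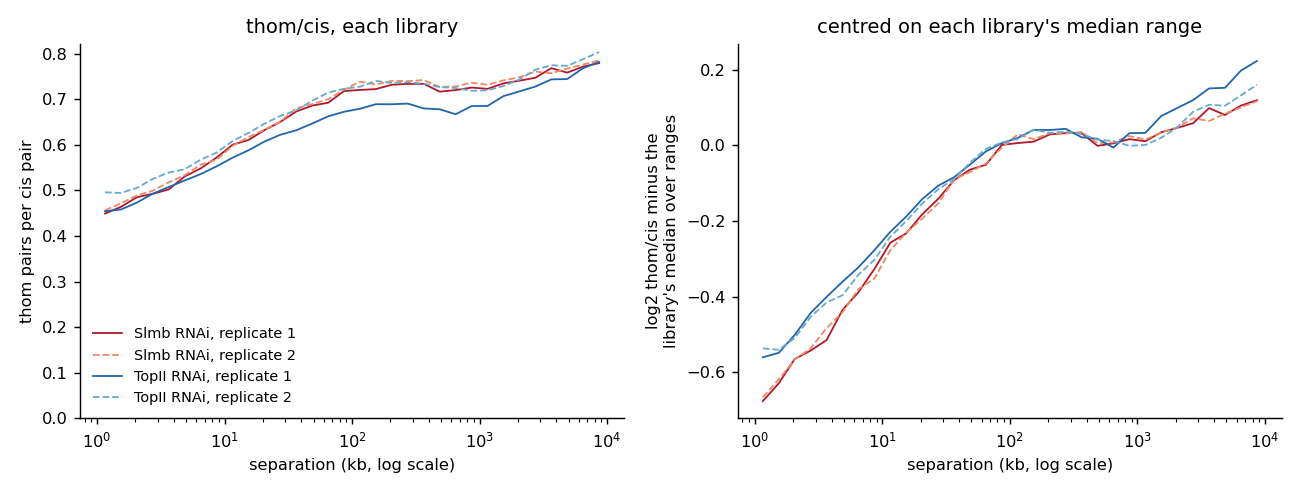
Left, *thom* pairs per *cis* pair (vertical axis) against separation (horizontal axis, log scale) for each of the 4 libraries. Right, the same as log2 minus the library's median over the 32 ranges, where both Slmb RNAi lines run below both TopII RNAi lines at the shortest and at the longest separations, by a mean of 0.12 at 1 kb and 0.07 at 7.5 to 10 Mb.

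The shape of the ratio differed once the level of each library was taken out. With each library's values centred on its median range, 14 of 32 ranges passed (43.8%), all lower in Slmb RNAi. They comprised the 8 ranges of 1 to 10 kb, 4 of those between 13.3 and 75.0 kb, that of 133 to 178 kb and the last range. At 1 kb the centred log2 ratio was −0.68 and −0.67 in Slmb RNAi and −0.56 and −0.54 in TopII RNAi (log2 difference −0.12 ± 0.01 SE, adjusted p = 0.00188). At 7.5 to 10 Mb it was 0.12 and 0.12 in Slmb RNAi and 0.22 and 0.16 in TopII RNAi (log2 difference −0.07 ± 0.02, adjusted p = 0.0355). Relative to a library's own middle ranges, then, *thom* contacts were scarcer at the shortest separations in Slmb RNAi. The inward excess of *thom* pairs under 1 kb, given above, was higher in both TopII RNAi libraries, and its part in this difference was not tested.

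In fixed windows of 100 kb along the autosomal arms, *thom*/*cis* varied over the genome in the same order in both knockdowns. Of 969 windows 907 held at least 20 pairs on average in both classes, with a median of 454 *thom* and 788 *cis* pairs a library. The Spearman correlation of log2 *thom*/*cis* over these windows, which share their mappability, was 0.916 between the Slmb RNAi replicates, 0.919 between the TopII RNAi replicates and 0.904 to 0.921 between single libraries of different knockdowns. The median window had a ratio of 0.634 and 0.628 in Slmb RNAi and of 0.606 and 0.643 in TopII RNAi, a median log2 difference of 0.01. The central 90% of windows had a log2 difference between −0.18 and 0.16, against a median SE of 0.11. One window passed limma (0.11%), and 30 had an unadjusted p under 0.05.

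That window lies on 2R of dm3, at 500001 to 600000, near the centromere end of the arm. Its *thom*/*cis* ratio was 0.0916 and 0.138 in Slmb RNAi, against 0.176 and 0.201 in TopII RNAi (log2 difference −0.75 ± 0.17 SE, adjusted p = 0.0141). It rests on 25 and 34 *thom* pairs in Slmb RNAi and 48 and 59 in TopII RNAi, far under the median count. Without Slmb RNAi replicate 1 no window passed, nor with a pseudocount of 5 or a mapping quality score of at least 30. The window passed without Slmb RNAi replicate 2, but not when either TopII RNAi library was left out. Then 1 other window passed each time, named after its values were seen, on 3R at 12600001 to 12700000 and lower in Slmb RNAi without TopII RNAi replicate 1, and on 2L at 1400001 to 1500000 and higher in Slmb RNAi without TopII RNAi replicate 2. Windows whose libraries did not overlap between the knockdowns numbered 272, which is 30.0% of the 907, while 0.11% passed. Of these 141 were higher and 131 lower in Slmb RNAi.

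The ratio was also taken by arm. The median window of 2L stood at 0.692 and 0.686 in Slmb RNAi and 0.664 and 0.691 in TopII RNAi, that of 2R at 0.704 and 0.72 in Slmb RNAi and 0.692 and 0.724 in TopII RNAi, and that of 3L at 0.689 and 0.69 in Slmb RNAi and 0.655 and 0.696 in TopII RNAi. On 3R, where maternal read sides outnumbered paternal ones, the median was 0.412 and 0.413 in Slmb RNAi and 0.404 and 0.451 in TopII RNAi. The median log2 difference was 0.03 on 2L, 0.01 on 2R and 0.03 on 3L but −0.03 on 3R, and TopII RNAi replicate 2 had both the highest ratio and the lowest maternal excess on 3R. In 4 equal groups of windows ranked by *thom*/*cis* in untreated cells, the median log2 difference ran over −0.02, −0.01, 0.02 and 0.02 with growing ratio, each within the spread between the TopII RNAi replicates.

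The amount of contact between arms did not separate the knockdowns. Pairs between the left and right arm of 1 chromosome made up 5.82% and 5.34% of autosomal pairs in Slmb RNAi, 5.58% ± 0.34 (SD, n = 2), and 5.69% and 4.76% in TopII RNAi, 5.22% ± 0.656 (exact permutation p = 0.667). *Thet* pairs between chromosomes 2 and 3 made up 7.89% and 6.96% in Slmb RNAi, 7.42% ± 0.659, and 8.44% and 5.77% in TopII RNAi, 7.11% ± 1.89 (exact permutation p = 1). Pairs of X with an autosome made up 6.07% and 5.25% of all pairs in Slmb RNAi and 6.34% and 4.32% in TopII RNAi. In both shares between chromosomes the TopII RNAi libraries enclosed the Slmb RNAi libraries. Taken arm by arm with homologs apart, none of the 32 combinations passed limma (0%; lowest adjusted p = 0.867) and none had an unadjusted p under 0.05. Their folds were 1.03 to 1.11, and in all 32 the libraries of the knockdowns overlapped. The 5 largest folds were 1.11 for maternal 3R with paternal 2L, 1.11 for maternal 3L with maternal 3R, 1.10 for maternal 2L with maternal 3R, 1.10 for maternal 2L with maternal 2R and 1.10 for paternal 2L with paternal 2R. Their SE of 0.25 on the log2 scale means that a change of this size was not detectable with these libraries.

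**Figure D4:**
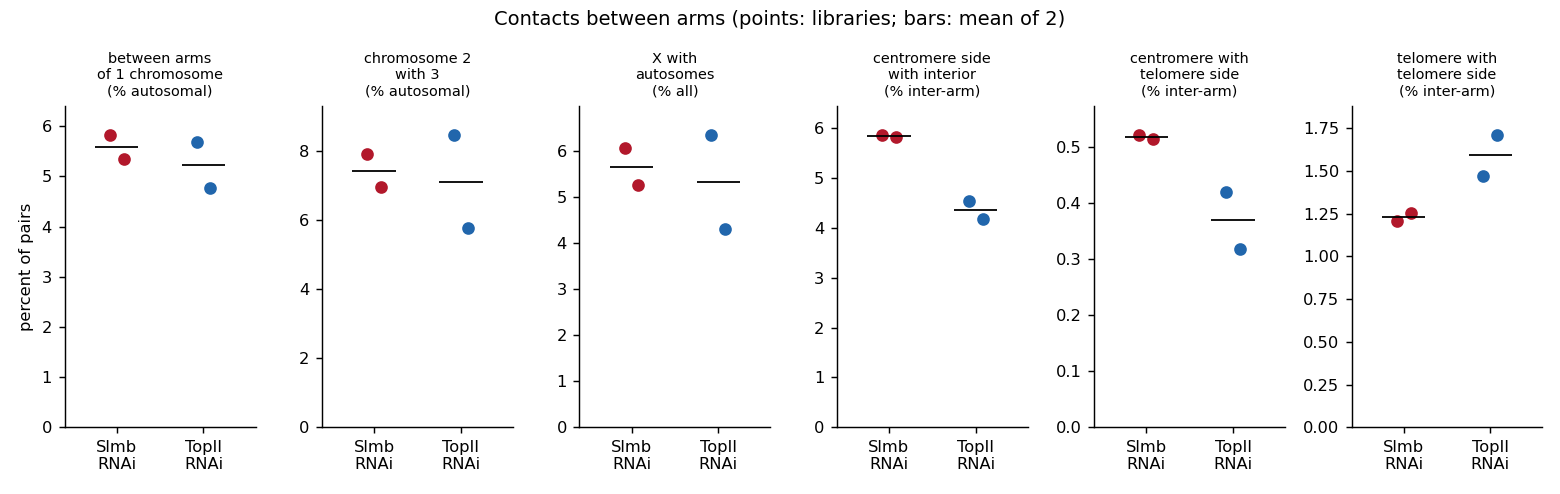
Percent of pairs (vertical axes, from 0) in each Slmb RNAi (left, red) and TopII RNAi (right, blue) library, with a bar at the mean of 2. The first 3 panels give the amount of contact between arms, where the libraries of the knockdowns overlap, and the last 3 give the part of inter-arm pairs that joins the named ends of the arms, where they do not.

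Where on the arms these contacts fell set the libraries of the knockdowns apart in 4 of 6 combinations of zones. Each side of a pair was assigned to the 2 Mb of its arm next to the centromere, the 2 Mb next to the telomere or the interior. Among inter-arm pairs, 5.85% and 5.81% joined a centromere side with the interior of the other arm in Slmb RNAi, against 4.53% and 4.17% in TopII RNAi. A further 0.522% and 0.514% joined a centromere side with a telomere side in Slmb RNAi, against 0.42% and 0.319% in TopII RNAi. Pairs of telomere side with telomere side were 1.21% and 1.26% in Slmb RNAi, against 1.47% and 1.71% in TopII RNAi, and pairs of telomere side with interior 16.3% and 16.0% in Slmb RNAi, against 17.2% and 17.3% in TopII RNAi. In these 4 combinations the libraries did not overlap (exact permutation p = 0.333, the smallest possible), whereas they did for pairs of centromere side with centromere side, at 1.04% and 1.19% in Slmb RNAi and 1.02% and 1.42% in TopII RNAi, and for pairs of interior with interior, at 75.0% and 75.2% in Slmb RNAi and 75.4% and 75.1% in TopII RNAi. Mock cells lay with TopII RNAi in the share of centromere side with interior, at 4.48% and 4.37%, and untreated cells were nearer Slmb RNAi, at 5.43% and 5.42%.

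The same order held between chromosomes for some combinations of zones only. Between chromosomes 2 and 3 the libraries were apart for centromere side with telomere side alone, and narrowly. For X with autosomes all combinations but centromere side with interior were apart. Among these, interior with interior stood at 71.6% and 71.8% in Slmb RNAi and 71.4% and 71.1% in TopII RNAi. Each such case has an exact permutation p of 0.333. For X with autosomes, telomere sides met in 1.30% and 1.35% of pairs in Slmb RNAi, against 1.45% and 1.82% in TopII RNAi, and a centromere side met a telomere side in 0.936% and 0.889% in Slmb RNAi, against 0.856% and 0.748% in TopII RNAi. Between chromosomes 2 and 3 the centromere side met the telomere side in 0.494% and 0.479% in Slmb RNAi, against 0.476% and 0.341% in TopII RNAi, but telomere sides met in 1.63% and 1.80% in Slmb RNAi and 1.73% and 2.39% in TopII RNAi, so that the libraries overlapped. The share of centromere side with interior, which separated the knockdowns between arms of 1 chromosome, overlapped here, at 4.75% and 4.55% in Slmb RNAi and 4.62% and 3.55% in TopII RNAi between chromosomes 2 and 3, and at 8.43% and 8.21% in Slmb RNAi and 8.27% and 7.37% in TopII RNAi for X with autosomes. Between arms of 1 chromosome, pairs within a parental homolog were 1.06 and 1.07 times as many as pairs across homologs in Slmb RNAi and 1.04 and 1.05 times in TopII RNAi, against 1.04 and 1.04 in mock cells and 1.01 and 1.02 in untreated cells.

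The positions of far pairs within arms were compared as well. Among *cis* pairs 5 to 10 Mb apart, 3.26% and 3.18% had a side in the centromere-side 2 Mb in Slmb RNAi, against 2.94% and 2.96% in TopII RNAi. On 2R these were 7.21% and 7.06% in Slmb RNAi and 6.22% and 6.32% in TopII RNAi, and on 2L 6.53% and 6.4% in Slmb RNAi and 6.22% and 6.01% in TopII RNAi. On 3L and 3R, where at most 0.63% of these *cis* pairs had a side there, the libraries overlapped. On X the share was 9.9% and 9.82% in Slmb RNAi and 9.45% and 9.41% in TopII RNAi. A side in the telomere-side 2 Mb was also more frequent, at 16.3% and 16.3% in Slmb RNAi, against 16.0% and 15.7% in TopII RNAi, for *cis* pairs, and at 16.6% and 16.6% in Slmb RNAi, against 16.1% and 15.9% in TopII RNAi, for X. For *thom* pairs the telomere-side share was 16.8% and 16.7% in Slmb RNAi, against 16.1% and 16.0% in TopII RNAi. Their centromere-side share over all arms was 3.69% and 3.68% in Slmb RNAi, against 3.55% and 3.45% in TopII RNAi. That share was also higher in Slmb RNAi on 2L and 2R, and on 3L the libraries overlapped. On 3R it ran the other way, at 0.855% and 0.8% in Slmb RNAi, against 0.933% and 1.00% in TopII RNAi. In this set of shares the smallest exact permutation p is 0.333.

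The map of X was divided into segments of 500 kb, whose 1035 pairwise blocks were each taken as a share of all X pairs. Of these blocks 914 passed (88.3%), 817 higher in Slmb RNAi (78.9%) and 97 lower (9.37%), and the direction followed separation. The blocks come from the same libraries and limma shares variance between them, so these calls and their p-values are not 914 separate findings. All 45 blocks on the diagonal were lower in Slmb RNAi, with a median of 0.849-fold, as were 43 of the 44 blocks of neighbouring segments. Of the 231 blocks 2 to 4.5 Mb apart, 186 were higher and none lower, of the 305 blocks 5 to 9.5 Mb apart 302 were higher, with a median of 1.34-fold, and of the 325 blocks at least 10 Mb apart 323 were higher, with a median of 1.51-fold. The 3 largest increases all joined the centromere-side end of X with a distant segment. The largest was between 5500001 to 6000000 and 22000001 to 22422827, with 397 and 350 pairs in Slmb RNAi and 188 and 176 in TopII RNAi, 2.24-fold (log2 difference 1.17 ± 0.11 SE, adjusted p = 2.29e-24). The next joined 21500001 to 22000000 with 1500001 to 2000000, 2.19-fold, and with 6500001 to 7000000, 2.18-fold. The largest decreases lay at or beside the diagonal, at 5500001 to 6000000 with its right neighbour (0.806-fold), within 15500001 to 16000000 (0.807-fold) and at 10500001 to 11000000 with its right neighbour (0.808-fold).

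**Figure D5:**
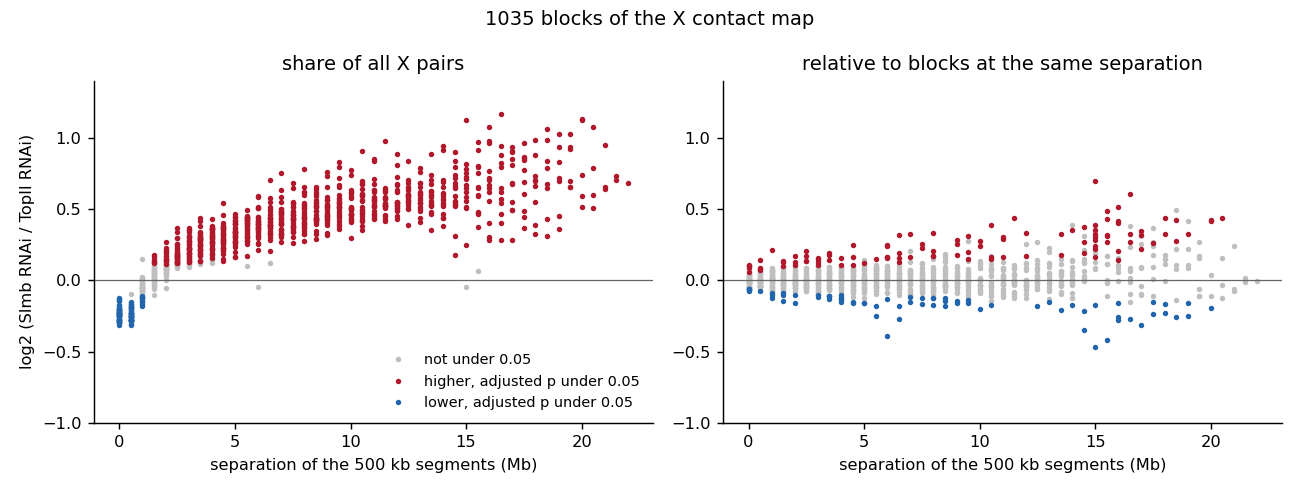
Log2 of Slmb RNAi over TopII RNAi for 1035 blocks of the X map (points, vertical axis) against the separation of their segments in Mb (horizontal axis). On the left, as a share of all X pairs, 817 blocks are higher and the blocks at 0 and 0.5 Mb are lower, and on the right, relative to blocks at the same separation, 108 higher and 73 lower blocks lie on both sides of 0.

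Fewer blocks passed once their separation was taken into account. Set against the mean of blocks at the same separation in the same library, a form added after the first values had been seen, 181 blocks passed (17.5%), 108 higher in Slmb RNAi (10.4%) and 73 lower (7.05%). This form gives every separation the same mean in each library, and 347 blocks had an unadjusted p under 0.05. The largest increases were again at the centromere-side end. The block of 6500001 to 7000000 with 21500001 to 22000000 reached 0.3 and 0.305 of the mean at its separation in Slmb RNAi, against 0.203 and 0.172 in TopII RNAi (log2 difference 0.70 ± 0.11 SE, adjusted p = 0.00109). Next came 5500001 to 6000000 with the last segment (1.53-fold) and with 21500001 to 22000000 (1.43-fold). The largest decrease was in a pair of distant segments that met often in both knockdowns, 500001 to 1000000 with 15500001 to 16000000. It stood at 3.38 and 3.39 times the mean at its separation in Slmb RNAi, against 4.5 and 4.89 times in TopII RNAi (log2 difference −0.47 ± 0.04, adjusted p = 1.08e-06). The block beside it, with 16000001 to 16500000, was 2.67 and 2.68 times the mean in Slmb RNAi and 3.47 and 3.68 times in TopII RNAi, and that of 13000001 to 13500000 with 19000001 to 19500000 was 2.31 and 2.37 times in Slmb RNAi and 2.89 and 3.24 times in TopII RNAi. The 3 named decreases are thus blocks of strong contact for their distance, and the 3 named increases are blocks of weak contact for theirs.

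Seen by segment, a view chosen after these values were known, blocks over 5 Mb apart that involve the last segment of X had a median of 1.22-fold and 21 of 34 passed as higher in Slmb RNAi, and those of the segment before it had 1.21-fold with 13 of 33. In the last 5 segments, at the centromere-side end, 59 of 160 such blocks passed as higher and 2 as lower. In the first 4 segments, at the opposite end, 7 of 130 such blocks passed as higher and 22 as lower. Of those 22, the segment of 500001 to 1000000 held 15 (of its 33, median 0.929-fold), while the end segment itself had a median of 0.998-fold, with 1 of 34 higher and 2 lower.

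Along X, read sides of a 100 kb window with a partner over 100 kb away were set against those with a nearer partner. All 225 windows had a positive log2 difference, with a median of 1.26-fold, and in 219 the libraries did not overlap. The median window had 2.42 and 2.27 far read sides per near read side in Slmb RNAi and 1.75 and 2.0 in TopII RNAi. Of these windows 76 passed limma (33.8%), all higher in Slmb RNAi. The largest of the passing differences were 1.47-fold at 21700001 to 21800000, 1.43-fold at 1 to 100000 and 1.42-fold at 100001 to 200000 (adjusted p = 0.0422 each). These windows lie toward the 2 ends of the chromosome. The first named rests on only 129 and 135 near read sides in Slmb RNAi and 183 and 175 in TopII RNAi. At 1 to 100000 there were 6085 and 5896 in Slmb RNAi and 8164 and 7380 in TopII RNAi. Whether the difference is larger toward the ends of X was not tested. The count of passing windows rests on single libraries: it was 1 without Slmb RNAi replicate 1, without Slmb RNAi replicate 2 or without TopII RNAi replicate 1, and 212 without TopII RNAi replicate 2.

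Local insulation of X ranked the 20 kb bins alike in all libraries. It was read as pairs that join the flanks of a bin, per pair within the bin and both flanks together. Over 1108 bins the Spearman correlation was 0.995 between replicates of either knockdown and 0.995 between the knockdowns, over bins that share mappability. The median bin had 0.152 and 0.147 crossing pairs per pair within bin and flanks in Slmb RNAi and 0.153 and 0.163 in TopII RNAi. The median log2 difference was −0.08, and 7.85% of bins had a positive difference. No bin passed limma (0%), while 178 had an unadjusted p under 0.05. The lowest p belonged to neighbouring bins at 12160001 to 12180000, with 0.19 and 0.193 in Slmb RNAi and 0.22 and 0.233 in TopII RNAi (adjusted p = 0.0807), and at 12140001 to 12160000, with 0.229 and 0.219 in Slmb RNAi and 0.254 and 0.262 in TopII RNAi (adjusted p = 0.084). Next was the bin at 7380001 to 7400000, with 0.213 and 0.21 in Slmb RNAi and 0.226 and 0.238 in TopII RNAi (adjusted p = 0.136). The genes in these bins are not given, because no annotation of the dm3 build was at hand.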

How the data were processed

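Hi-C of PnM cells was analysed from 4 libraries. The authors trimmed reads and used bwa mem (0.7.15-r1140) for alignment to a genome that joins the dm3 haplotypes of both parents. Pairs were then made with pairsamtools (0.0.1-dev), limited to those with a unique place on a homolog, and freed of duplicates. The deposited lists give positions, strands and a mapping quality score for each side, without normalization, and all counts were made here. Pairs of 1 arm under 1 kb apart were left out. Log2 values with a pseudocount of 0.5 were fitted with limma 3.58.1 in R 4.3.3 (lmFit and eBayes, with a trend for windows, blocks and bins, without a block), with Benjamini-Hochberg adjustment at 0.05 over all features of a table. Windows needed a mean of 20 in both counts of their ratio, and blocks and bins a mean of 20 in the numerator. Windows of *thom*/*cis* also had to hold pairs of both classes in every library. Ranges and combinations of arms had no filter on the mean count. Single values were compared by two-sided exact permutation tests, which cannot go below 0.333. Fits were also run on simulated counts drawn from the means of these libraries, in which features vary independently. Fits to features that move together, as the ranges do, were not tested by this. Python 3.11.15 served with numpy 2.4.6, with scipy 1.17.1, with pandas 2.3.3 and, for figures, with matplotlib 3.10.9.

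The comparison, its features and its lists were chosen with earlier results of these data known. Named features were the large arms, the ranges that start at 1, 10 and 100 kb and 1 Mb, the range with the largest difference in each direction, and the 3 windows, blocks or bins with the largest passing, non-overlapping difference in each direction, or the 3 with the lowest p where none passed. Depth was 10190412 to 11635751 pairs a library, and single windows and blocks are limited by their counts. Alternatives were the replicate block, leaving out each library, the spread from all 8 libraries, a mapping quality score of at least 30, pairs on the same strand, a pseudocount of 5, no filter, thinning to equal depth, leaving out 3R, centring, other denominators and other window sizes. Denominators of near pairs, blocks relative to their separation, the crossed pairing and the positions of far pairs were added after seeing the data. RNA-seq was not used here.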

Additional observations from a re-analysis of the deposited data

How the results depend on the processing

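The ranges with the largest difference in each direction kept their direction under every alternative run for them. The last range gave log2 differences of 0.577 to 0.654 for *cis*, 0.531 to 0.634 for *thom* and 0.444 to 0.632 for X. The alternatives were not read for the other named ranges. The counts of passing features moved more. Leaving out 1 library in turn gave 10 to 19 of 32 *cis* ranges, 11 to 24 *thom* ranges, 3 to 29 X ranges, 0 to 25 *thom*/*cis* ranges, 0 to 1 windows (the 1 without TopII RNAi replicate 2 higher in Slmb RNAi), 677 to 956 X blocks, 1 to 212 X far-to-near windows and 0 to 1 insulation bins, and log2 differences of −0.0113 to 0.0816 for the overall *thom*/*cis* ratio, −0.189 to 0.361 for the *thet* share and −0.0294 to 0.228 for the inter-arm share. Per pair of 1 to 10 kb, 0 *cis*, 0 *thom* and 0 X ranges passed (12, 5 and 4 at an unadjusted p under 0.05), which ends those calls. Replicate numbers are shared by the knockdowns but nothing says that they pair the libraries. With the replicate block 11 *cis*, 13 *thom* and 7 X ranges, 0 *thom*/*cis* ranges, 1 window, 0 arm combinations, 816 X blocks, 0 X far-to-near windows and 0 insulation bins passed. Differences between replicates had a correlation between the knockdowns of −0.922 over *cis* ranges and 0.909 over arm combinations, and with the crossed pairing 23 *cis*, 28 *thom* and 30 X ranges, 218 X far-to-near windows and 92 insulation bins passed. No window passed (0) with the spread of all 8 libraries, mapping quality of at least 30, same-strand pairs, a pseudocount of 5, thinning, no trend, centring, windows of 50 or 200 kb, or pairs with 1 side in the window. Centred *thom*/*cis* ranges gave 14, X blocks of 1 Mb 254 of their smaller number and blocks relative to their separation 181. X far-to-near windows numbered 211 with the spread of all 8 libraries and 192 with no trend. Insulation bins numbered 78 with the spread of all 8 libraries, all lower in Slmb RNAi, 1 with same-strand pairs and 1 with no trend. The cause of these moves was not tested. With 2 libraries a group, a combination of arms needed a log2 difference of 0.50 for an unadjusted p of 0.05.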
